A study of Mus musculus with 8 samples.

Results

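The baseline profile of wildtype descendants of hypertrophic chondrocytes is described here from 2 pools of cells taken from the proximal tibia of mice at postnatal day 5. A gene was taken into the profile where its level was at least 1 FPKM (fragments scaled by the length of the gene and by the fragments mapped in the library, so that levels can be compared between genes) in both pools. That rule kept 9117 of the 48490 genes in the deposited table. The 2 pools are 2 of the 8 libraries of the series, which also holds 4 libraries with β-catenin deleted and 2 with β-catenin stabilised in the same cells, and those 6 were not analysed here. The wildtype genotype was Col10a1Cre;Rosa26-Tdtomato: Cre is driven by Col10a1, the collagen gene that defines hypertrophic chondrocytes, and switches on a red fluorescent reporter that the cell and its progeny keep. For each library 70 fluorescent cells were picked by hand and amplified together by Smart-seq2, a full-length cDNA method for small inputs. The labels call the cells both chondrocytes and descendants of hypertrophic chondrocytes, and do not say whether each pool came from 1 animal or several, so the spread between the libraries may be technical. No test was made, since both libraries belong to 1 group, and each level is given in library 1 and library 2.

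In a growing long bone, chondrocytes of the growth plate stop dividing, enlarge and make type X collagen, and the matrix around them mineralises. At the junction with the marrow this cartilage is eroded and replaced by bone. Lineage tracing has shown that some hypertrophic chondrocytes survive there and give rise to osteoblasts, osteocytes and stromal cells of the marrow, including cells able to form fat. Cells marked by Col10a1Cre can therefore hold several of these states at once, and the levels below are averages over each pool, in which fewer cells of a type and less RNA per cell cannot be told apart.

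The 9117 genes made up 18.8% of all genes in the table and 39.3% of the 21619 protein-coding genes, and 93.1% of them were protein-coding. They held 98.2% of the summed FPKM of library 1 and 97.8% of that of library 2. Their median level, as the mean of the libraries, was 7.81 FPKM, with quartiles of 3.74 and 18.3. The distribution was steep: 25 genes had a mean of at least 1000 FPKM, 446 of at least 100 and 3798 of at least 10. The 10 highest genes took 21.9% and 23.9% of the summed FPKM of libraries 1 and 2, and the 100 highest took 41.6% and 45.0%. A further 1551 genes reached 1 FPKM in library 1 only and 1245 in library 2 only. Just inside the threshold lay Amacr, at 1.00 and 2.49 FPKM, and just outside it lay the thrombomodulin gene Thbd, at 3.83 and 0.999.

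The libraries had 13357 and 13408 genes above 0 and summed to 324898 and 344040 FPKM. The values are not counts, so the depth in fragments is unknown. Over 2971 genes of low level the most frequent ratio of library values, held by 104 of them, corresponds to a depth of library 1 of 0.997 times that of library 2, which is an estimate only. The 3 highest genes, Rn18s-rs5, Gm42418 and AY036118, lie on the ribosomal RNA locus of chromosome 17 and held 13.5% and 14.0% of the summed FPKM. The 37 genes of the mitochondrial genome all stood at 0, while 7 pseudogenes in a block on chromosome 1, which share 97.1% to 100% of their 50-base stretches with mitochondrial genes, held 2.98% and 4.31%. The sum of the globin genes, markers of red cells, was 0.786% of library 1 and 3.06% of library 2. Xist was at 12.9 and 14.2 FPKM, and all 4 Y-linked genes looked for were at 0 in both.

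Genes of bone matrix were among the highest of the profile. Of the 25 genes with a mean of at least 1000 FPKM, 5 encode secreted bone matrix proteins, and together these 5 took 7.24% and 7.18% of the summed FPKM. The 45 ribosomal protein genes among the 100 highest genes took 8.56% and 9.05%. Taking the lists by class, each gene once within a class, osteogenic genes held 8.23% and 8.29% of the summed FPKM (mean 8.26%), chondrocytic genes 0.943% and 0.671%, and stromal genes 0.672% and 0.554%. Mmp13 alone accounted for most of the chondrocytic share, and without it the class mean fell from 0.807% to 0.263%. Lists of blood, vessel, muscle, nerve and osteoclast markers held 1.90% and 3.84%, most of it globins and Mmp9.

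**Figure D1:**
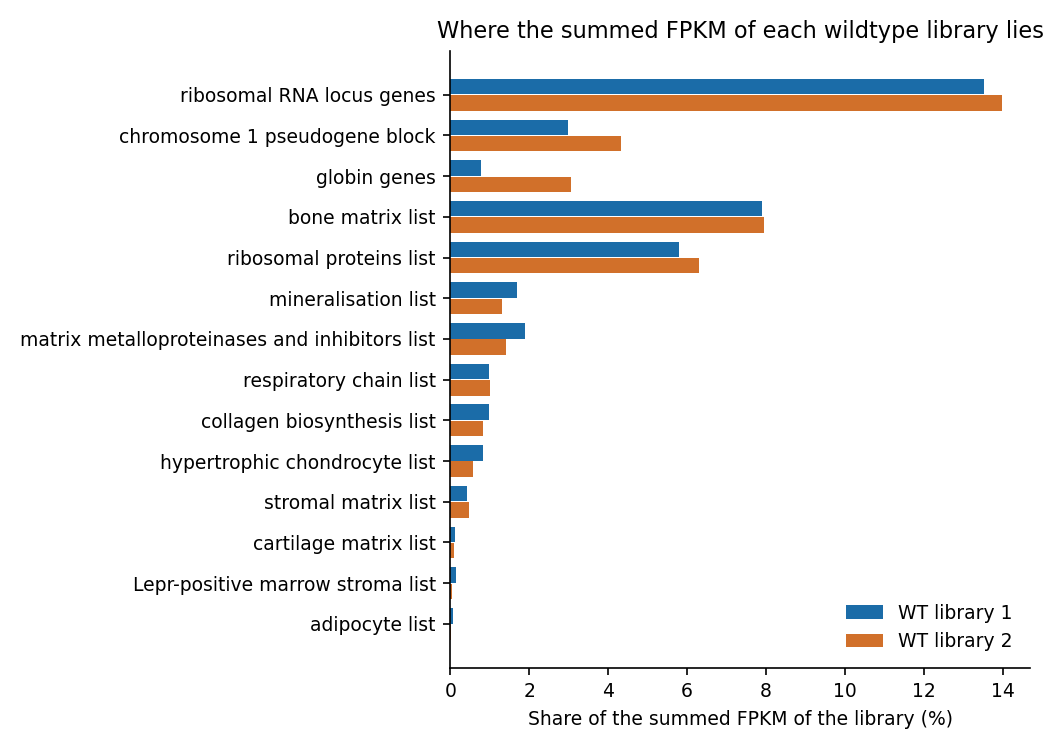
Percent of the summed FPKM of each wildtype library (horizontal axis, starting at 0) held by groups of genes (rows), with 1 bar per library. Bone matrix genes hold 7.89% and 7.95% and the 34 ribosomal protein genes of their list 5.79% and 6.30%, whereas cartilage matrix, Lepr-positive stroma and adipocyte genes hardly show, and globin genes differ, at 0.786% and 3.06%.

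Among the osteogenic, chondrocytic and stromal classes, osteogenic genes also stood highest by rank. The lists were chosen with earlier results of these data known, so this order is a description of the chosen genes only. With rank 1 the highest mean among the 9117 genes and 4559 the median rank of all of them, the 48 osteogenic genes in the profile, of 59 in the table, had a median rank of 1151.5. Of the 48, 18 were among the 500 highest genes, which make up 5.48% of the profile. The 24 chondrocytic genes in the profile, of 46, had a median rank of 4314.5, near that of all genes, with 6 among the 500 highest. The 54 stromal genes, of 89, had a median rank of 3408.5, also with 6 among the 500 highest. By library 1 alone the median ranks were 1736.5, 4196.5 and 3015, and by library 2 alone 1129, 3827 and 4380.5, in the order osteogenic, chondrocytic, stromal, so the order of the last 2 turned. These medians cover only the genes that passed the threshold, and Mgp and Phospho1 count in both the osteogenic and the chondrocytic class.

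**Figure D2:**
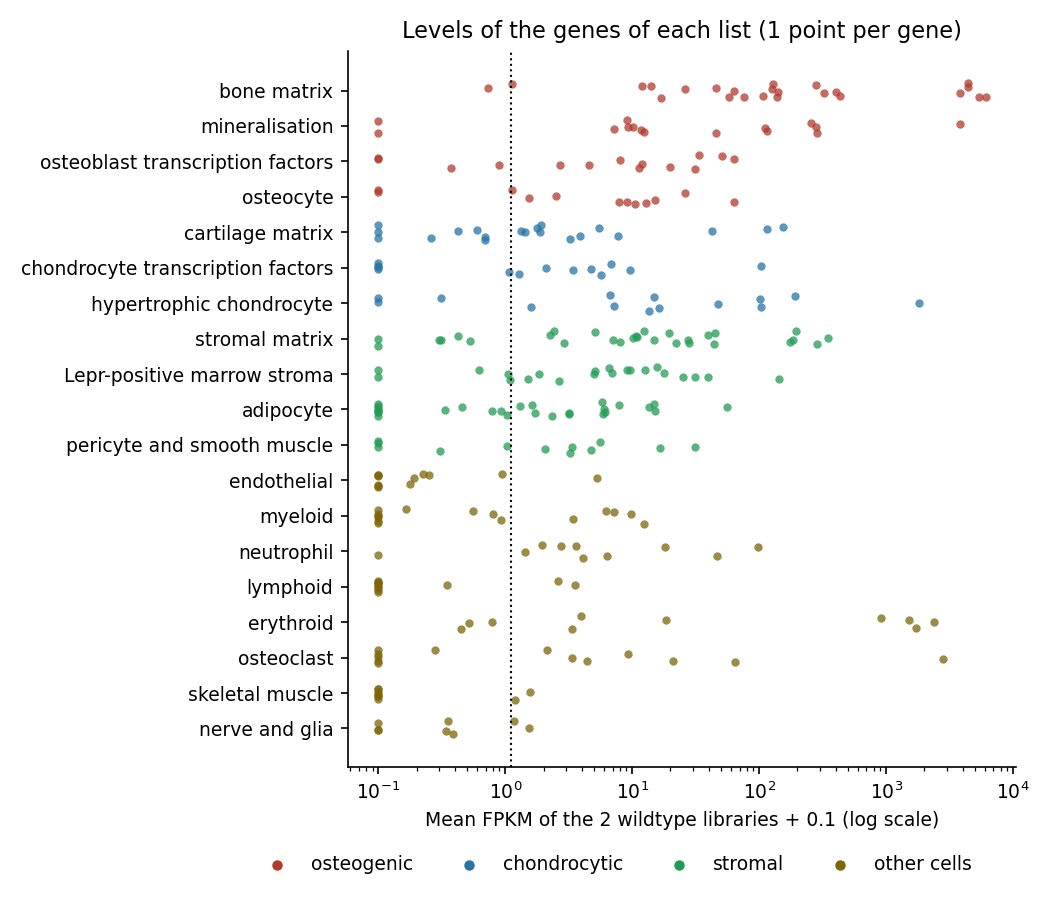
Level of each gene, as the mean of the 2 wildtype libraries in FPKM plus 0.1 on a log scale (horizontal axis), for the lists of osteogenic, chondrocytic, stromal and other cells (rows, 1 point per gene), with a dotted line at 1 FPKM. Bone matrix genes reach past 1000, most cartilage matrix genes lie below 10, and points at the left edge are genes listed at 0 in both libraries.

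Type I collagen, the main fibre of bone, came first among named protein-coding genes. Col1a1 (ENSMUSG00000001506.10, chromosome 11, 94936224 to 94953042, mm10) stood at 5470 and 6681 FPKM in libraries 1 and 2 and ranked 4th of 9117. Col1a2 (chromosome 6, 4504814 to 4541544), which encodes the other chain of the same molecule, stood at 3856 and 4925. The ratio of Col1a1 to Col1a2, per length, was 1.42 in library 1 and 1.36 in library 2, although both genes were higher in library 2. The type I collagen trimer takes 2 chains from Col1a1 and 1 from Col1a2. Sparc (chromosome 11, 55394500 to 55420080), osteonectin, a collagen-binding glycoprotein, was at 4756 and 6096 FPKM. Ibsp (chromosome 5, 104299171 to 104311469), bone sialoprotein, which nucleates mineral, was at 5194 and 3564. Spp1 (chromosome 5, 104435118 to 104441050), osteopontin, which binds mineral and cells, was at 4236 and 3450. The collagens and Sparc were thus higher in library 2 and Ibsp and Spp1 in library 1. The differences were below 1.5-fold, and after quantile normalisation Col1a1 was higher in library 1 and Sparc equal.

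Of the 24 bone matrix genes, 22 were in the profile, with a median rank of 327, and 14 were among the 500 highest. Serpinf1, pigment epithelium-derived factor, loss of which causes brittle bone disease, was at 291 and 569 FPKM. Cthrc1, a secreted collagen triple helix protein, was at 326 and 475. Ifitm5, a membrane protein made by mineralising osteoblasts, was at 374 and 274. Alpl, the alkaline phosphatase that removes pyrophosphate and so allows mineral to grow, was at 328 and 230. These 4 lay more than 10-fold below Col1a1 in each library and were followed by Tnc, tenascin C, at 188 and 94.5. Mepe, a phosphoprotein of late osteoblasts, missed the threshold, at 1.23 and 0.811, as did the third osteocalcin copy Bglap3, at 0 and 1.27.

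Osteocalcin, the vitamin K-dependent protein of mature osteoblasts, differed most between the libraries within that list. Bglap (chromosome 3, 88383501 to 88384464) was at 27.8 FPKM in library 1 and 231 in library 2, an 8.28-fold difference, and its neighbour Bglap2 (chromosome 3, 88377736 to 88378699) was at 3.02 and 149, a 49.5-fold difference. Bglap2 thus ranked 7343rd in library 1 and 301st in library 2. The copies are near-identical in part: 51.3% of the 50-base stretches of Bglap occur in Bglap2 and 69.2% of those of Bglap2 in Bglap, so how reads were split between them is uncertain, while both were higher in library 2.

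Osteoblast transcription factors were present at moderate levels, with 10 of 14 (71.4%) in the profile, against 39.3% of all protein-coding genes. None was among the 500 highest, which hold 5.48% of the profile. Runx2, the factor that starts the osteoblast programme, was at 38.2 and 63.7 FPKM, rank 871. Sp7 (osterix), which acts after Runx2, was at 31.7 and 35.1, rank 1328. Atf4, which drives amino acid supply and matrix synthesis in osteoblasts, was at 63.3 and 63.8, nearly equal. Cbfb, the partner of Runx proteins, was at 21.2 and 18.6. Distal-less factors were lower, with Dlx5 at 8.21 and 15.4 and Dlx3 at 7.89 and 14.5. Msx2 and Alx4 were at 0 in both libraries.

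Markers of osteocytes, the cells embedded in bone, were split. Dmp1, a matrix phosphoprotein of early osteocytes that limits Fgf23 production, was at 29.3 and 97.8 FPKM, a 3.33-fold difference, and Phex, the endopeptidase of the same pathway, at 16.6 and 35.5. The late osteocyte genes Sost, which encodes the Wnt inhibitor sclerostin, and Fgf23, the phosphate hormone, were at 0 in both libraries. Of the 12 osteocyte genes, 8 were in the profile with a median rank of 3365.5.

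Of 15 mineralisation genes, 13 were in the profile, with a median rank of 975, and Spp1, also counted in bone matrix, was the highest of them. Annexins, calcium-binding proteins of matrix vesicles, were at 260 and 312 FPKM for Anxa5 and at 290 and 220 for Anxa2. Phospho1, the phosphatase that acts inside those vesicles, was far lower, at 4.23 and 9.96. Enpp1, which makes the mineral inhibitor pyrophosphate, was at 14.8 and 3.40, whereas Ank, which exports it, was at 7.66 and 17.1. Both raise pyrophosphate outside the cell, and they differed in opposite directions between the libraries. The kinase Fam20c, which phosphorylates secreted bone proteins, was at 3.82 and 19.6, and the phosphate transporter Slc20a1 at 3.68 and 16.5, both higher in library 2, whereas the related transporter Slc20a2 was higher in library 1, at 12.3 and 5.58. Over the list 8 genes were higher in library 1 and 5 in library 2, beside 5030 and 4087 of all 9117 genes.

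Of 20 cartilage matrix genes, 8 (40%) were in the profile, near the 39.3% of all protein-coding genes, with a median rank of 5183, and 3 of these carried most of the signal: Col11a1, the minor fibrillar collagen, at 159 and 146 FPKM, Mgp, matrix Gla protein, an inhibitor of mineralisation, at 131 and 98.7, and Col11a2 at 43.2 and 41.1. Col2a1, the main collagen of cartilage, was at 9.48 and 5.64, rank 4642, so Col1a1 exceeded it 577-fold in library 1 and 1185-fold in library 2. Acan, aggrecan, the main cartilage proteoglycan, was at 1.49 and 2.15. Lect1, Ucma and Cytl1, all made by growth plate chondrocytes, were at 0 in both. The whole cartilage matrix list held 0.112% and 0.0920% of the summed FPKM, and 0.0712% and 0.0633% without Mgp. The pools are labelled chondrocytes, and the defining genes Col2a1 and Acan were below 10 FPKM in both. Col11a1 and Mgp are also made by cells of the osteoblast lineage.

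Chondrocyte transcription factors other than Mef2c had means below 10 FPKM. Sox9, the factor required for cartilage, was at 0 in library 1 and 1.93 in library 2. Its partners were at 7.09 and 4.03 for Sox5 and at 5.91 and 0.672 for Sox6. Mef2c, which drives hypertrophy and also acts in osteocytes, was at 111 and 95.5. Nkx3-2, Foxa2, Foxa3 and Barx1 were at 0 in both libraries. Of the 13 genes, 7 were in the profile, with a median rank of 5606.

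Of 14 genes of hypertrophic chondrocytes, 10 were in the profile, with a median rank of 1742.5 and 4 among the 500 highest. Mmp13 (chromosome 9, 7272514 to 7283333), the collagenase of terminal hypertrophic cells and of osteoblasts, was at 2106 and 1514 FPKM, rank 14. Cd200 was at 243 and 136, and Panx3, a channel of the endoplasmic reticulum and cell surface, at 103 and 101, rank 441. Pth1r, the receptor for parathyroid hormone, was at 45.2 and 49.5. Col10a1 (chromosome 10, 34389981 to 34397085), whose promoter drives the Cre, was at 6.24 and 20.5, rank 3008, a 3.29-fold difference. Ihh, the hedgehog ligand of prehypertrophic cells, and Pthlh were at 0 in both. Mmp13 exceeded Col10a1 338-fold in library 1 and 73.9-fold in library 2. The genes of the list with the highest levels are also known from osteoblasts, and which cells of the pools they came from was not tested. Nor was it tested which cells gave the bone matrix genes counted as osteogenic, Ibsp, Spp1 and Alpl included.

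Promoters of 4 of these genes are printed because they belong to genes that span the range of the profile: Ibsp and Mmp13 near the top, Bglap with its large difference between libraries, and Col10a1, the driver gene. They are the 250 bases before the transcription start, in RefSeq on GRCm38.p6, read along the gene's strand. Capitals mark 3 motifs searched on both strands: TATAAA, the TATA box (TTTATA where inverted); TGTGGT, the core bound by Runx factors (ACCACA where inverted); and TGANTCA, the AP-1 site bound by Fos and Jun.
Ibsp (chr5:104299037-104299286, + strand): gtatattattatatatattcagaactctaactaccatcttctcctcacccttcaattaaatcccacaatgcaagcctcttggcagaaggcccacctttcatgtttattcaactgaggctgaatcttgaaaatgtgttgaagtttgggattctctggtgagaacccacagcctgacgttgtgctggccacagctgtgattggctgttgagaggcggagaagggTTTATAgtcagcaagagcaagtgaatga
Mmp13 (chr9:7272264-7272513, + strand): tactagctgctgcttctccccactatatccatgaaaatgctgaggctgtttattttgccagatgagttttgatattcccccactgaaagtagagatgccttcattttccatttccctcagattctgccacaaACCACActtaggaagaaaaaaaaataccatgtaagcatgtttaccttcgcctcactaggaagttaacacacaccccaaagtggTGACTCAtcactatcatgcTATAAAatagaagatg
Bglap (chr3:88384467-88384716, - strand): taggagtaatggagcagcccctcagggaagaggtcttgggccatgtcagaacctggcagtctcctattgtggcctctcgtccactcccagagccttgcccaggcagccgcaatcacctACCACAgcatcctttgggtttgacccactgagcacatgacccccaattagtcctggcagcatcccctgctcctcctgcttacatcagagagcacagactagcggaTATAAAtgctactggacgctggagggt
Col10a1 (chr10:34389731-34389980, + strand): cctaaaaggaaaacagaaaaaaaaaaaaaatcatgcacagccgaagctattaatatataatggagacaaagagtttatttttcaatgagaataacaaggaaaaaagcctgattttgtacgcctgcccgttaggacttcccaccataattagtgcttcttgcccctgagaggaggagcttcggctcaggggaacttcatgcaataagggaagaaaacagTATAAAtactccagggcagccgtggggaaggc

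A TATA motif lay close before the start in all 4: 28 bases before it in Ibsp, where it is inverted, 16 in Mmp13, 27 in Bglap and 32 in Col10a1. Other genes looked up differed: Sparc and Cxcl12 had no TATAAA in the window, and of 2 Spp1 promoters 1 had it 211 bases before the start and the other had none. Runx motifs were in Mmp13, 118 bases before the start, and in Bglap, 132 before it, and an AP-1 motif lay 35 bases before the start of Mmp13. Of 32 bone matrix promoters, from 19 genes of the list, 8 (25%) held TATAAA, against 6.18% of the 8615 promoters of genes in the profile and 12.4% of all 32851. The Runx motif was in 6 of the 32 (18.8%), against 10.5% and 14.0%. The AP-1 motif was in 4 (12.5%), against 3.81% and 6.75%. Promoters of the same gene were counted separately and can overlap, and a match describes the letters only. TATAAA was in 21.1% of 19 promoters of the hypertrophic chondrocyte list, 20.8% of 24 of the stromal matrix list and 3.85% of 26 of the ribosomal protein list. The Runx motif was in 23.1% of 13 promoters of the list of metalloproteinases and inhibitors, 16.7% of 18 of the cartilage matrix list and 5.26% of the 19 hypertrophic ones. For the AP-1 motif these shares were 15.4%, 0% and 15.8%. None of the motif shares is thus particular to bone matrix genes.

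Genes of marrow stroma that carry the leptin receptor were present but lower, and most were higher in library 1. Cxcl12 (chromosome 6, 117168535 to 117181367), the chemokine that holds blood stem cells in the marrow, was at 236 and 49.1 FPKM, a 4.80-fold difference. Lepr itself was at 51.3 and 27.0. Hp, haptoglobin, was at 54.1 and 8.51, the PDGF receptor gene Pdgfrb at 39.3 and 10.9, and the transcription factor gene Ebf1 at 24.2 and 6.81. Csf1, the growth factor of macrophages and osteoclasts, was at 25.1 and 10.2. Kitl, stem cell factor, departed from this order, at 4.27 and 5.74. Ebf2 and Ly6a were at 0 in both. Of 21 genes, 14 were in the profile, with a median rank of 3583.5 and 1 among the 500 highest.

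Stromal matrix genes were the strongest part of the stromal class, with 22 of 29 in the profile and 5 among the 500 highest. They held 0.427% and 0.468% of the summed FPKM, of 0.672% and 0.554% for the class. The Lepr-positive list held 0.156% and 0.0464%. Which cells of the pools the stromal matrix genes came from was not tested. Bgn, biglycan, was at 376 and 318 FPKM. Dcn, decorin, was at 152 and 422, and Lum, lumican, at 131 and 256, so these small proteoglycans did not move alike. Fn1, fibronectin, was at 200 and 170, and Col5a2, a collagen that sets fibril width, at 179 and 171. Col3a1, the collagen of loose connective tissue, was only at 14.8 and 23.9, so that Col1a1 exceeded it 370-fold and 279-fold. Postn, periostin, was at 46.5 and 9.71, and Col6a1, a microfibrillar collagen, at 11.7 and 2.25, both higher in library 1. Aspn and Mfap5 were at 0 in both.

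Of 27 adipocyte genes, 12 were in the profile, a share near the 39.3% of all protein-coding genes, and their median rank was 5476.5, with none among the 500 highest, which hold 5.48% of the profile. Lpl, lipoprotein lipase, was the highest, at 95.4 and 16.5 FPKM, rank 785, a 5.77-fold difference. Apoe was at 22.6 and 6.96. Pparg, the factor that starts adipocyte formation, was at 4.72 and 1.47. Adipoq, adiponectin, was at 12.0 in library 1 and 0 in library 2, and Fabp4 at 1.88 and 0. Genes of lipid synthesis, storage and release were in the profile in part, with Dgat1 at 19.1 and 10.7, Plin2 at 17.2 and 9.79, Agpat2 at 12.2 and 3.45 and Pnpla2 at 4.38 and 1.82. Plin4, Lipe, Cidec and Adig were at 0 in both libraries, as were the secreted products Lep, Retn and Cfd. Pericyte and smooth muscle genes gave 6 of 12 in the profile, led by Myl9 at 32.7 and 29.9 and Acta2 at 18.8 and 14.4, with Myh11, Cnn1 and Rgs5 at 0.

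Markers of other cells were checked because hand-picked marrow cells can carry them along. Vessel markers were nearly absent: 1 of 12 was in the profile, Egfl7 at 5.68 and 4.76, and Cdh5, Tek, Flt1, Vwf, Esam and Cldn5 were at 0. Ptprc, the pan-leukocyte gene, was at 0.132 and 0, although 4 of 15 myeloid genes were in the profile, led by Fcer1g at 1.48 and 23.0. The calprotectin genes of neutrophils were at 166 and 30.3 for S100a8 and at 71.8 and 20.5 for S100a9. Erythroid genes went the other way: Hbb-bs was at 1007 and 3760 FPKM and Alas2, the haem synthesis enzyme of red cells, at 1.93 and 35.1. Skeletal muscle (9 genes) and nerve and glia (8 genes) had no gene in the profile. The S100 genes and the red cell genes therefore differed between the libraries in opposite directions, and their part in the other differences was not tested.

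Protease genes were among the highest. Mmp9 (chromosome 2, 164940780 to 164955850), gelatinase B, often taken as a marker of osteoclasts, was at 3167 and 2403 FPKM, rank 11. Ctsk, the collagenolytic cathepsin of osteoclasts, was at 69.1 and 58.5 and Acp5, their acid phosphatase, at 3.23 and 5.30. Calcr, Dcstamp, Ocstamp, Atp6v0d2 and Oscar were at 0 in both libraries, and Tnfrsf11a, the receptor RANK, at 0.241 and 0.121, so these 6 genes of the osteoclast list were at 0 or below the threshold. The other 7 of its 13 genes were in the profile, with a median rank of 4040, and they include Car2, at 18.8 and 22.7, and Clcn7, at 15.7 and 2.79. Of the metalloproteinases and their inhibitors, 11 of 16 were in the profile and 5 among the 500 highest. Mmp14, the membrane enzyme that activates other metalloproteinases, was at 223 and 218, Mmp2 at 117 and 128, and the inhibitor Timp1 at 357 and 424. Mmp3, Mmp8 and Timp4 were at 0. Among lysosomal proteases, 13 of 15 genes were in the profile, led by the inhibitor Cst3 at 164 and 233 and the protease Ctsh at 175 and 174.

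Of 9 genes of signals that direct osteoclasts, 5 (55.6%) were in the profile, against 39.3% of all protein-coding genes. Their median level was 10.5 FPKM and their median rank 3631, beside 7.81 FPKM and 4559 for all 9117 genes. Tnfsf11, RANKL, the ligand that induces osteoclasts, was at 14.7 and 9.92 FPKM, and Tnfrsf11b, osteoprotegerin, its decoy receptor, at 9.72 and 11.3. The ratio of Tnfsf11 to Tnfrsf11b was 1.51 in library 1 and 0.880 in library 2, on opposite sides of 1. Il34, Il6 and Ccl2 were at 0 in both.

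Genes that make and secrete collagen reached high levels in part. Of 28 collagen biosynthesis genes, 26 were in the profile, with a median rank of 745 and 8 among the 500 highest. P4hb, a subunit of prolyl 4-hydroxylase, was at 531 and 427 FPKM, Ppib, a proline isomerase, at 517 and 488, and Serpinh1, the collagen chaperone Hsp47, at 349 and 311. Pcolce, which enhances procollagen cleavage, was at 405 and 351, Fkbp10 at 267 and 232, and Lox, which crosslinks fibrils, at 201 and 159. Lower members were Loxl2, at 8.72 and 3.51, and P3h2, at 3.44 and 0.954. On FPKM as deposited 19 of the 26 genes were higher in library 1, as were 5030 of all 9117. Secretory pathway genes were similar, 22 of 25 in the profile with a median rank of 638, with Hspa5, the chaperone BiP, at 291 and 289 and Creb3l1, a factor that drives collagen secretion in osteoblasts, at 80.5 and 98.8. Ribosomal protein genes (34 of 34 in the profile, median rank 60) and respiratory chain genes (19 of 19, median rank 272) were also high. None of them was 2-fold apart between the libraries. Few genes of the profile at high levels were, 2.68% of those with a mean from 100 to 300 FPKM and 6.80% of those at 300 or more.

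Wnt pathway genes are given for the baseline only. Ctnnb1, β-catenin, was at 137 and 146 FPKM (142 ± 5.98, SD, n = 2), rank 305. Wls, which carries Wnt proteins to the cell surface, was at 133 and 142, whereas the ligands themselves were low, with Wnt5a at 5.09 and 3.23 and Wnt4 at 3.22 and 4.54. Of 22 genes of ligands, R-spondins and secretion 6 (27.3%) were in the profile, against 39.3% of all protein-coding genes, and 11 were at 0 in both. Receptors numbered 9 of 21 (42.9%), near the share of all protein-coding genes. A mean of at least 20 FPKM was reached by 2110 of the 9117 genes and by none of these receptors. They were led by Ryk at 16.8 and 12.7, with Lrp6 at 5.34 and 5.70 and Lrp5 at 1.29 and 1.12. Among TCF/LEF factors Tcf7l2 was highest, at 61.3 and 42.7, and Lef1 lowest by its mean, at 2.96 and 1.99. The feedback gene Axin2 was at 0 and 0.323. Secreted antagonists were led by Wif1, at 101 and 52.4, and Sfrp4, at 36.2 and 18.8, while Dkk1 was at 4.28 and 13.6.

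Genes of other growth factor pathways were mostly below 20 FPKM, as was most of the profile, where 2110 of 9117 genes had a mean of at least 20. Fgfr1 was at 33.6 and 29.2 FPKM and Fgfr2 at 24.9 and 27.8. None of the 9 FGF pathway genes in the profile, of 15, was 2-fold apart. Of all 9117 genes, 13.7% were at least 2-fold higher in library 1 and 8.45% in library 2. Ptch1, the hedgehog receptor and a target of the pathway, was at 18.4 and 13.9, although Ihh, Shh and Dhh were all at 0. In the Notch list Hes1 was highest, at 22.3 and 48.7. Of its 19 genes 8 (42.1%) were in the profile, near the 39.3% of all protein-coding genes. The BMP and TGFβ list gave 29 of 42, with Id3, a BMP target, at 176 and 153 and the next highest, Fstl1, at 106 and 31.3. Igfbp4, which binds IGF outside the cell, was at 106 and 43.9, well above the ligand gene Igf1 at 11.1 and 7.59.

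The libraries were close for genes of high level and less so for low ones. Over the 9117 genes Spearman's rho between libraries was 0.847 and Pearson's r of log2 FPKM 0.892, as descriptions across genes of 1 pair of libraries, which share gene lengths and annotation. The median ratio of the higher to the lower library was 1.13-fold for genes with a mean of at least 300 FPKM, 1.37-fold between 10 and 30, and 1.56-fold between 3 and 10. Between 1 and 3 it was 1.49-fold, where requiring 1 FPKM in both libraries caps the ratio. The lists of the 100 highest genes of each library shared 86 genes, and those of the 1000 highest shared 856.

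**Figure D3:**
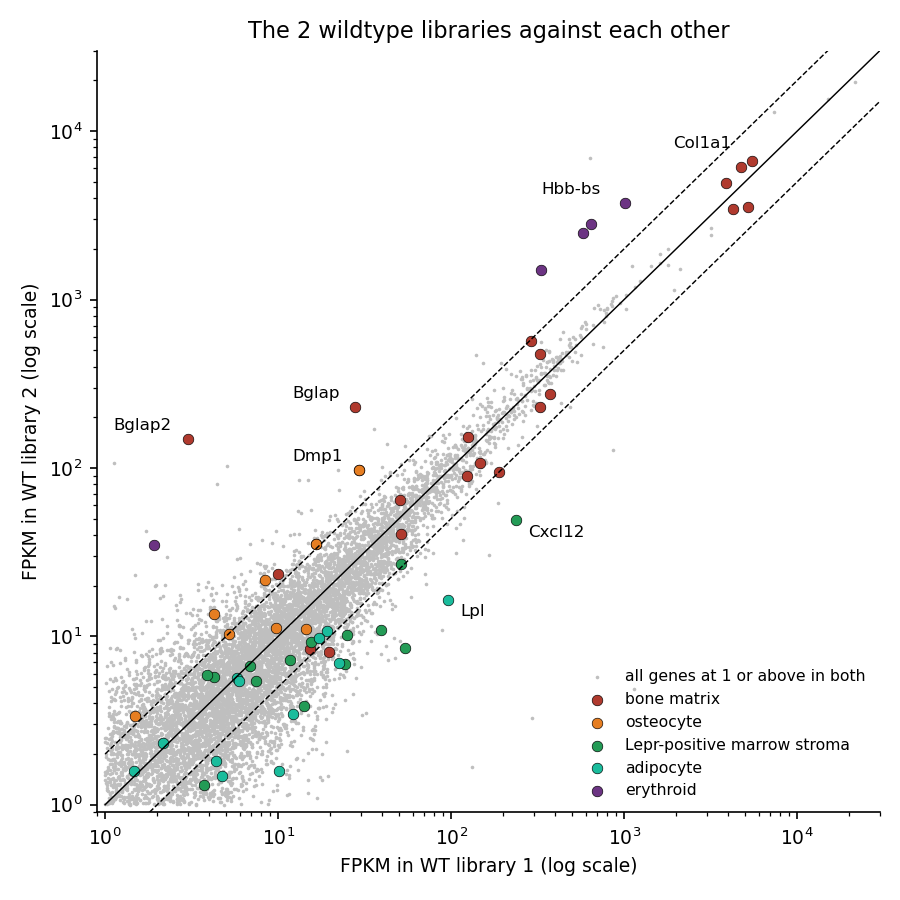
FPKM in wildtype library 2 (vertical, log scale) against library 1 (horizontal, log scale), 1 grey point per gene of the 9117, with genes of bone matrix, osteocytes, Lepr-positive marrow stroma, adipocytes and red cells in colour. The solid line marks equality and the dashed lines 2-fold either way; Bglap, Bglap2, Dmp1 and Hbb-bs lie above the upper dashed line, and Cxcl12 and Lpl below the lower.

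In all, 2017 genes were at least 2-fold apart, a comparison of 1 library with 1: 1247 (13.7% of the 9117) were higher in library 1 and 770 (8.45%) in library 2. Among the 2110 genes with a mean of at least 20 FPKM these were 86 (4.08%) and 84 (3.98%). The split over the 9117 depended on scaling. Scaled by the median ratio between libraries, 54.1% of the genes apart were higher in library 1, and after quantile normalisation 48.7% were, as 956 against 1008, compared with 61.8% on FPKM as deposited. Read against those percentages, 7 of the 14 Lepr-positive stromal genes and 6 of the 12 adipocyte genes were at least 2-fold higher in library 1 and none in library 2. Conversely, 5 of the 8 osteocyte genes and 5 of the 22 bone matrix genes were higher in library 2, against 0 and 1 in library 1. These counts overlap, since Dmp1 and Phex are in both lists, and Bglap and Bglap2, which share reads, are among the bone matrix genes. The median log2 ratio of library 1 to library 2 was 1.12 over the stromal genes, 1.05 over the adipocyte genes, -1.13 over the osteocyte genes and -0.29 over the bone matrix genes, beside 0.07 over all 9117. The stromal and adipocyte counts were the same under both other scalings, while the osteocyte count rose to 6, and the bone matrix count was 6 or 5.

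Level bears on these counts. Of all genes with a mean between 3 and 10 FPKM, 19.5% were at least 2-fold higher in library 1 and 11.3% in library 2, and between 10 and 30 the percentages were 10.1% and 7.08%. Of the 14 stromal genes 7 had a mean below 10, as did 8 of the 12 adipocyte genes and 3 of the 8 osteocyte genes, whereas none of the 22 bone matrix genes did. The direction of these lists goes with that of the blood cell markers: 4 of 6 neutrophil genes were at least 2-fold higher in library 1 and all 5 erythroid genes in library 2. The part of blood cells, of cell make-up or of amplification in the differences was not tested.

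**Figure D4:**
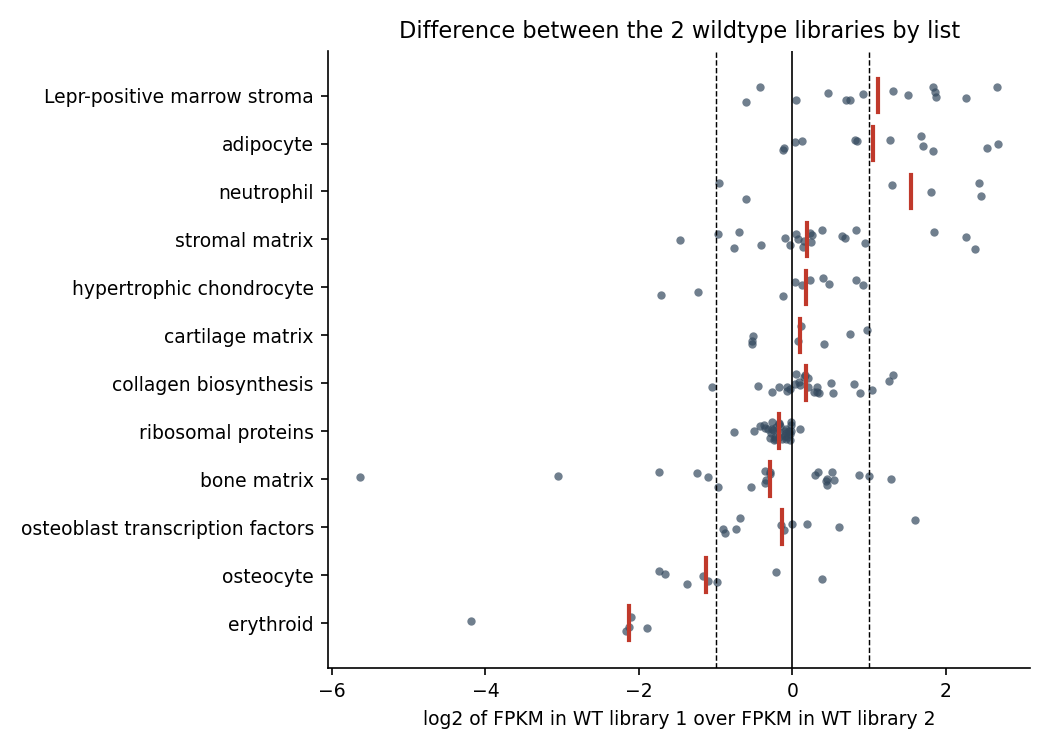
Log2 of FPKM in wildtype library 1 over library 2 (horizontal axis) for each gene of the profile in 12 lists (rows, 1 point per gene), with a red bar at the median of the list, a solid line at 0 and dashed lines at 2-fold either way. Stromal marker and adipocyte points lie mostly to the right, higher in library 1, and osteocyte and erythroid points mostly to the left, higher in library 2.

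Genes of dividing cells were present, all 21 of them, with a median rank of 2663. Pcna, the replication clamp, was at 55.0 and 47.7 FPKM and Cdk1, the kinase that starts mitosis, at 38.2 and 69.6. Grouped after their values were seen, all 8 replication genes were higher in library 1, with sums of 173 and 96.8 FPKM. Of the 13 genes of mitosis 11 were higher in library 2, with sums of 235 and 412. These directions were the same under both other scalings, which cannot test a grouping made with the values in view. Over all 9117 genes 5030 were higher in library 1 and 4087 in library 2. At least 2-fold apart were 5 of the 8 and 5 of the 13. Mcm3, a subunit of the replicative helicase, was at 17.6 and 4.16, and Birc5, survivin, which acts in chromosome segregation, at 31.7 and 65.8. Among the genes grouped as mitotic, Ccna2 and Aurkb were higher in library 1, at 17.0 and 14.9 and at 12.8 and 9.18. Genes that restrain the cycle stood beside them, with Cdkn1a, p21, at 75.7 and 120, while Cdkn2a was at 0 in both.

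**Figure D5:**
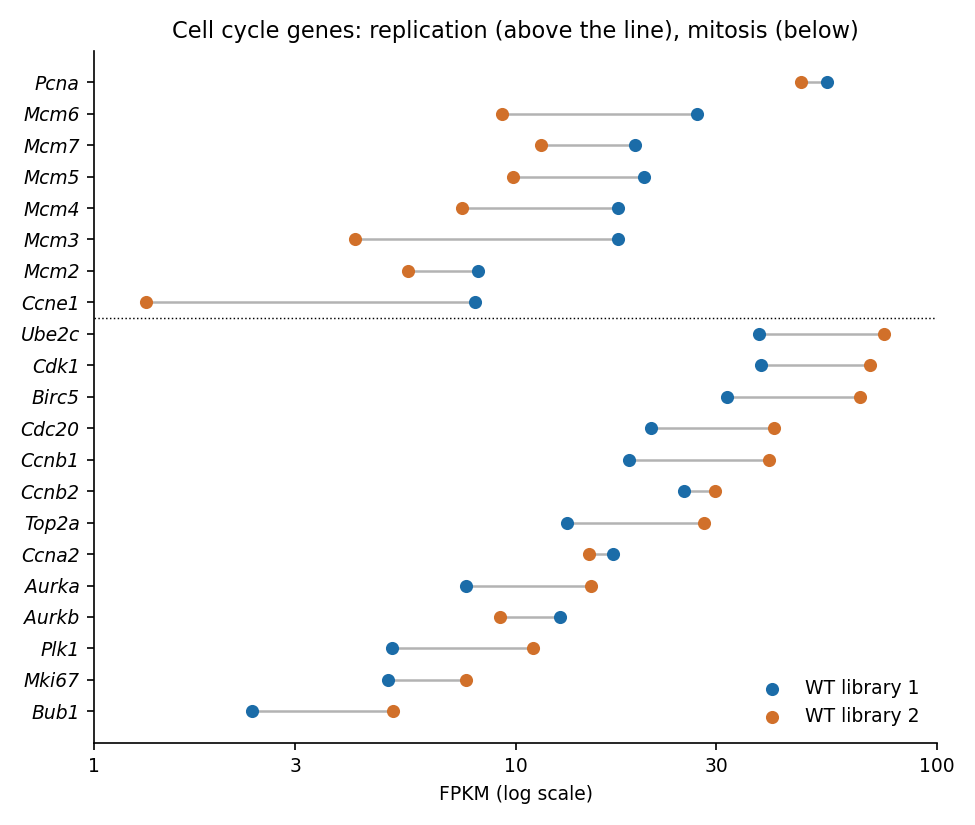
FPKM (horizontal, log scale) of the 21 cell cycle genes in wildtype library 1 and library 2, joined by a line for each gene, with replication genes above the dotted line and genes of mitosis below it. Each of the 8 replication genes is higher in library 1, and 11 of the 13 genes of mitosis are higher in library 2. The groups were formed after the values were seen.

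Genes that respond to tissue dissociation spanned a wide range, with 2 of 24 among the 500 highest and a median rank of 2449.5. Fos, the early response factor, was at 375 and 385 FPKM, Egr1 at 66.8 and 102, and Jun at 35.7 and 34.3, and 20 of the 24 were in the profile. Egr2 was at 4.66 and 3.08 and Egr3 at 0 in both. The Fos level was thus nearly equal in the libraries, and its origin, in the animal or in handling, was not tested.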

How the data were processed

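RNA of 2 wildtype pools was measured by Smart-seq2, per the labels' protocols, and the authors deposited FPKM per gene and library. Per the submitters' processing notes the tools were Cufflinks, HTSeq, HISAT2 and SAMtools 0.1.18, on mm10. Their roles and order, and the release of the gene models, are not given in the sources used here. Of 48555 lines, 65 that repeated 49 gene IDs with identical values were removed. The number of genes above 0 before this equalled that in the labels in 2 of 2 libraries. Smart-seq2 does not mark strand, so overlapping genes cannot be told apart, and copies such as osteocalcins, globins and ribosomal pseudogenes share reads. FPKM is a share of the library, so abundant genes lower the rest.

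Levels, ranks, sums and 2-fold differences were computed with Python 3.11.15, pandas 2.3.3, numpy 2.4.6 and scipy 1.17.1, and drawn with matplotlib 3.10.9. Fold differences used no pseudocount. The code was tested on simulated data. Gene types came from GENCODE M21, which matched 48131 IDs, and promoters from RefSeq GRCm38.p6. The genes and lists were chosen with earlier results of these data known. Named genes were the highest 25, the up to 8 highest of each list and those at 0, genes furthest apart, and those nearest the threshold. Genes were also named for their role in a list, and such a choice was made with values in view. Alternatives were other thresholds, scalings, denominators, pseudocounts and leaving out either library.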

Additional observations from a re-analysis of the deposited data

How the results depend on the processing

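Across 8 results and 50 alternatives, 32 values stayed within the spread of the libraries or within 1.5 times the count, and 18 moved. The shares with 1 library left out are among the 32 by construction. Each is the value of the other library, which always lies within the SD of the pair. The number of genes in the profile was 4976 with a threshold of 5 FPKM in both libraries, against 9117, and 10362 to 10668 when 1 library was left out. The osteogenic share was 8.43% over genes in the profile only, 6.45% without Col1a1 and 12.6% with ribosomal and predicted genes out of the denominator. The chondrocytic share was 0.263% without Mmp13 and 1.22% with that denominator, and the stromal share 0.509% without its highest gene and 0.931%. With either library left out the shares were 8.23% to 8.29%, 0.671% to 0.943% and 0.554% to 0.672%, in the order osteogenic, chondrocytic, stromal. Median ranks in that order were 1680, 6247 and 5425 with no filter on low values, and 1129 to 1736.5, 3827 to 4196.5 and 3015 to 4380.5 with 1 library left out. In library 2 alone stromal genes ranked below chondrocytic genes (4380.5 against 3827), the reverse of library 1 (3015 against 4196.5), so the order of these classes by rank rests on 1 library, and the cause was not tested. Genes at least 3-fold apart numbered 682, at least 4-fold 296, at least 2-fold with a mean of at least 10 FPKM 489, and 7096 with no filter, where low values enter. No paired analysis was possible because the profile holds 1 group and no test. With 2 pools of 70 cells, a gene near 1 FPKM can fall on either side by sampling, a value of 0 does not show absence, and a 2-fold difference between 2 libraries has no replicate behind it. Gene copies that share sequence limit Bglap, Bglap2, the globins and the pseudogenes.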

Other observations

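Genes of limb position gave 6 of 20 (30%) in the profile, against 39.3% of all protein-coding genes. Prrx1, a factor of limb mesenchyme, was at 15.7 and 19.8 FPKM in libraries 1 and 2, and Shox2 at 11.2 and 7.67. Of the Hox genes looked for, Hoxa10, at 12.2 and 5.46, Hoxa9, at 5.70 and 3.16, Hoxa11, at 3.16 and 2.56, and Hoxc10, at 2.47 and 1.05, were in the profile. The hindlimb factor Pitx1 was at 1.32 and 0.526, while Tbx4, Tbx5, Hoxa13 and Hoxd9 to Hoxd13 were at 0 in both libraries. Imprinted growth genes gave 10 of 13 in the profile. Gnas, which encodes the stimulatory G protein subunit used by Pth1r, was at 244 and 254, and Mest at 103 and 101, both nearly equal in the libraries, whereas Igf2 was at 1.61 and 4.25 and Dlk1 at 0.

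Among vascular signals 15 of 17 genes were in the profile, led by the matricellular genes Cyr61, at 176 and 140 FPKM, and Ctgf, at 160 and 108. Vegfa, the main angiogenic factor of hypertrophic cartilage, missed the threshold, at 2.32 and 0.691. The gap junction gene Gja1 was the highest of 18 adhesion genes, at 311 and 242. Ldha led glycolysis, at 302 and 308. Vdr, the vitamin D receptor, was at 22 and 15.3. The protease inhibitor gene Serpine2 (1929 and 1142) and the tetraspanin gene Cd63 (1150 and 1190) ranked 19th and 24th of all genes although neither was in a list. The genes furthest apart were sought among named genes of the profile with a mean of at least 20 FPKM. Toward library 1 they were Slc10a7, at 1137 and 4.85 (234-fold), and Auts2, at 293 and 3.28 (89.2-fold). Toward library 2 they were, after Bglap2, the histone gene Hist1h2ap, at 1.72 and 42.5 (24.7-fold), and the small nuclear RNA gene Rn7sk, at 5.07 and 103 (20.3-fold). Outside the profile, 22 genes were at 20 FPKM or more in 1 library and at 0 in the other.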
